A study of Mus musculus with 39 samples.

Results

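H3K4me1 was compared between the Oct4+ and the Pdgfra+ populations of mouse naive extra-embryonic endoderm (nEnd) through 6 CUT&Tag peak lists, 3 per population, out of 39 samples in the series, 36 of which have a peak list. CUT&Tag uses an antibody to bring the Tn5 transposase to a histone mark, so that the DNA around the mark is cut out and sequenced. All cells came from a single OCT4-mCherry reporter line of mouse embryonic stem cells, received no treatment, and were sorted by FACS on OCT4-mCherry and on an APC-labelled antibody against PDGFRA. The sort gave Oct4+ cells, Pdgfra+ cells and cells positive for both (DP), and the last form other samples that do not enter here. Per the study's methods, nEnd was differentiated in Activin A, CHIR99021 and LIF, and PDGFRA-positive cells were then expanded on mouse embryonic fibroblasts, which can also express PDGFRA. The antibody was Abcam ab8895, against H3K4me1.

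Monomethylation of lysine 4 of histone H3 is laid down by the MLL3 and MLL4 methyltransferases over enhancers, and marks both active enhancers, which also carry H3K27ac, and primed ones, which do not. Naive pluripotent cells rest on OCT4, SOX2, NANOG, ESRRB, TFCP2L1 and KLF factors, whereas extra-embryonic endoderm is specified by GATA and SOX17 factors downstream of FGF signalling and lays down the basement membrane of the early embryo. A sorted population holds many cells, so a mark in fewer cells and less of the mark per cell cannot be told apart.

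The lists held 4127, 16057 and 7443 peaks in Oct4+ replicates 1 to 3 and 1723, 1074 and 10620 in Pdgfra+ replicates 1 to 3. The populations overlapped in peak number (two-sided exact permutation p = 0.50, with 0.10 the smallest p that 3 libraries against 3 allow), and Pdgfra+ replicate 3 lay within the range of the Oct4+ lists. Read depth is not known for any library, and the weakest listed peak had a total signal between 4194 and 8222. The mark may therefore be present where no peak was listed. Each comparison was therefore made with all peaks and again with lists of equal length, the 1074 peaks of highest total signal of each library. With equal lengths, the base pairs shared by 2 libraries over those covered by either came to 0.142 to 0.293 within Oct4+, 0.124 to 0.149 within Pdgfra+ and 0.0231 to 0.0765 between the populations. With all peaks the ranges were 0.149 to 0.304, 0.0573 to 0.142 and 0.0135 to 0.120, and they overlapped. There Pdgfra+ replicate 3 shared 0.120 and 0.0998 with Oct4+ replicates 2 and 3, but 0.0958 and 0.0573 with Pdgfra+ replicates 1 and 2. Chromosome 6 held 8.53 to 12.9% of Oct4+ peaks and 9.60 to 14.3% of Pdgfra+ peaks, against 5.08% of protein-coding genes and 5.49% of the genome length, and genes on it are named as such below. The copy number of chromosome 6 in this line was not measured here, and the percentiles of genes on it are not adjusted for it.

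The sequences under some of these peaks are shown first, because the lists of the populations are compared below by the motifs they hold. Each is 200 bp of the GRCm38 plus strand around the middle of the interval of maximum signal, at the highest listed peak of a gene. The genes had a peak in all libraries of a single population and in none of the other, with all peaks or with lists of equal length. Capitals mark matches to the 9 motifs searched, described with their shares further on. The Pcsk6 window (chr7:65873648-65873847) and the Tfcp2l1 window (chr1:118650329-118650528) lay in introns and come from Oct4+ lists. With all peaks, the Pcsk6 window also lay within a listed peak of Pdgfra+ replicate 3. The Klf4 window (chr4:55542187-55542386) and the Gata4 window (chr14:63283675-63283874) were intergenic, the Apoa1 window (chr9:46215336-46215535) lay in an intron of another gene, and these come from Pdgfra+ lists.
Pcsk6: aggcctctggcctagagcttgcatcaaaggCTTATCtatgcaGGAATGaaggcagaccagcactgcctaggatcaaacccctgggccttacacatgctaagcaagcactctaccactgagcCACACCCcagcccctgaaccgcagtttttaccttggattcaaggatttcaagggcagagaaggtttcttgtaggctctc
Tfcp2l1: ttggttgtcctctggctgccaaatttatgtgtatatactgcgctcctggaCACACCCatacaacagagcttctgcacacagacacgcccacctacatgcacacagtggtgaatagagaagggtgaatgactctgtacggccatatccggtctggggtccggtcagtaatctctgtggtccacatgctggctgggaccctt
Klf4: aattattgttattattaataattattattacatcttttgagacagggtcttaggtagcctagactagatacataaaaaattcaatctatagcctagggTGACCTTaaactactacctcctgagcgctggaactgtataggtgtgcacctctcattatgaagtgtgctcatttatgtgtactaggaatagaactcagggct
Apoa1: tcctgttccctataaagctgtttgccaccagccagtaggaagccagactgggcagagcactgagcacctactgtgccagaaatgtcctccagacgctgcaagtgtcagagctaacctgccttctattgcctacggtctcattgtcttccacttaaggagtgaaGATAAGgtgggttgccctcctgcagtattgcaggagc
Gata4: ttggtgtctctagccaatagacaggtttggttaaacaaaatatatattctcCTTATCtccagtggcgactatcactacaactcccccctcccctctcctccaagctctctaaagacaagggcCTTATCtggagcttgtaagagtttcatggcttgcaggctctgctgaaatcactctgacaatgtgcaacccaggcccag

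Counted from 1 at the left end, the Gata4 window held the GATA motif at positions 52 and 123, the Apoa1 window at position 164 and the Pcsk6 window at position 31. The Tfcp2l1 window held a KLF match at position 51, and the Klf4 window, which has 36% GC against 47.5 to 52.5% in the other 4, held an ESRRB match at position 99. Of 3 further windows chosen by the same rule, those of Pim3 and Krt18 held 2 TEAD matches and 1 KLF match, and that of Notum held none. The Pim3 window, too, lay within a listed peak of Pdgfra+ replicate 3 with all peaks. A match is a description of the letters and not a bound site.

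Over whole lists, the GATA motif (GATAAG, on either strand, within 400 bp around the middle of the maximum-signal interval) had the largest difference in share between the populations among the 9 motifs. It was found in 10.1, 9.96 and 10.8% of the equal-length Oct4+ lists and in 29.9, 31.7 and 32.6% of the Pdgfra+ lists, so that no Oct4+ library came near a Pdgfra+ library. The share over all 6618338 windows of 400 bp of the genome, not matched for GC, was 14.2%, above every Oct4+ list and below every Pdgfra+ list. The means were 10.3% ± 0.459 and 31.4% ± 1.37 (SD, n = 3 libraries each), a difference of -21.1 points at the smallest p that the design allows (exact permutation over libraries, two-sided, p = 0.10, or 0.113 adjusted over the 9 motifs). GATA factors, of which GATA6 and GATA4 specify extra-embryonic endoderm, bind this sequence.

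The FOX motif (TGTTTAC), read by forkhead factors such as FOXA2, was present in 4.66, 4.38 and 4.47% of Oct4+ windows and in 8.85, 9.12 and 11.6% of Pdgfra+ windows, against 5.97% of the genome. The SOX motif (AACAATG) was present in 7.54, 6.52 and 5.12% of Oct4+ and in 11.5, 11.1 and 12.7% of Pdgfra+ windows, against 7.91% of the genome. The AP-1 motif (TGANTCA), bound by FOS and JUN dimers, followed the same order, with 12.6% ± 0.372 in Oct4+ and 17.6% ± 0.888 in Pdgfra+. For the TEAD motif (GGAATG) the groups lay closer, at 25.8% ± 1.08 and 28.6% ± 1.69, and still did not overlap. FOX, SOX, AP-1 and TEAD each gave an exact permutation p of 0.10 (adjusted p = 0.113).

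The ESRRB, KLF and octamer motifs stood the other way round, unlike the SOX motif, which SOX2 also reads. The ESRRB motif (AAGGTCA), a sequence read by the orphan nuclear receptors ESRRB and NR5A2, was in 16, 17.4 and 16.4% of Oct4+ windows and in 11, 10.6 and 10.1% of Pdgfra+ windows, both above the 7.39% of the genome. The KLF motif (GGGTGTG) was in 25, 26.1 and 24.0% of Oct4+ and in 17.0, 17.6 and 19.8% of Pdgfra+ windows, against 6.27% of the genome. The octamer (ATGCAAA), the sequence that OCT4 reads, was in 8.94, 10.1 and 8.10% of Oct4+ windows and in 5.12, 5.68 and 4.38% of Pdgfra+ windows. The Oct4+ share of the octamer was near the genome share of 10.1%, and the Pdgfra+ share was below it. That genome share is not matched for GC, which was lower over the genome than in the lists. Each of these 3 motifs gave an exact permutation p of 0.10 (adjusted p = 0.113), whereas the STAT motif (TTCCNGGAA), the site of the STAT3 arm of LIF signalling, was rare and overlapped between the groups at 2.27% ± 0.469 and 2.02% ± 0.269 (exact permutation p = 0.70, adjusted p = 0.70).

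Base composition differed between the lists as well, from 51.9 to 52.6% GC in Oct4+ windows and from 50.0 to 51.1% in Pdgfra+ windows, against 41.7% over the genome (difference 1.73 points between the populations, exact permutation p = 0.10). Whether a motif share above or below that of the genome follows base composition was not tested. Among windows of 45 to 55% GC alone, the GATA shares were 11.3% ± 0.304 and 33.2% ± 1.02, the ESRRB shares 18.9% ± 1.24 and 11% ± 1.13, and the octamer shares 10.6% ± 1.27 and 5.36% ± 0.485. With peaks over promoters left out, the GATA shares were 10.3% ± 0.386 and 32.1% ± 1.28. With all peaks in place of equal lists they were 10.9% ± 0.0639 and 29.0% ± 2.37. Both subsets were chosen after the shares had been seen.

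**Figure D1:**
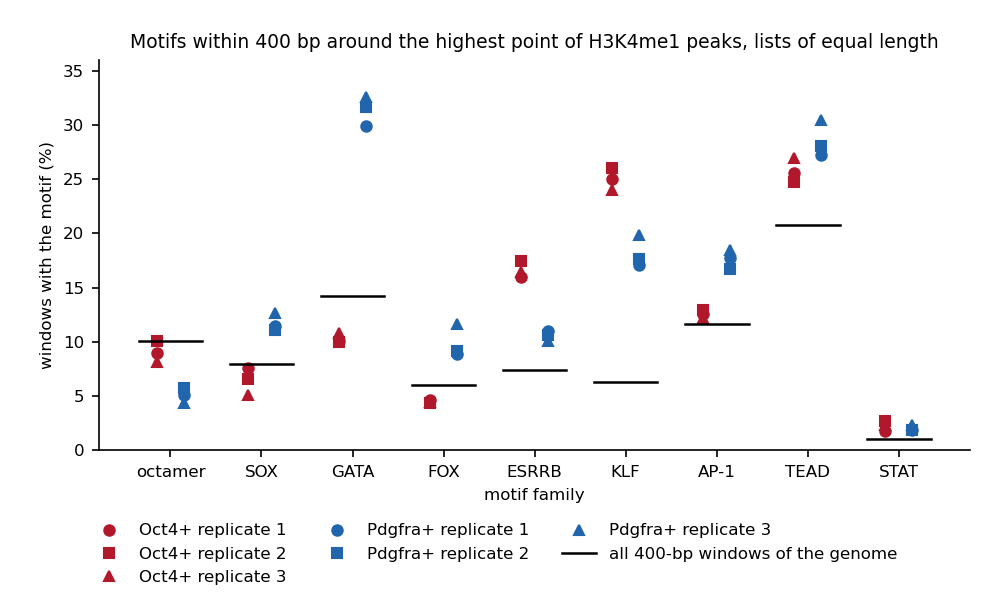
Share of H3K4me1 peaks with each of 9 motifs (y axis, per cent) in the 1074 peaks of highest total signal of each library, in red for Oct4+ and blue for Pdgfra+ with a symbol per replicate, and black bars for all windows of the same length in the genome. The Pdgfra+ libraries sit between 29.9 and 32.6% for GATA and the Oct4+ libraries between 9.96 and 10.8%, while for STAT the symbols of the populations overlap.

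Genes were next asked for a listed peak whose nearest protein-coding gene start lay within 20 kb. Of 21911 genes, 539 (2.46%) had such a peak in 3 of 3 Oct4+ libraries and 0 of 3 Pdgfra+ libraries, and 47 (0.215%) had the reverse pattern, while 85 had a peak in all 6 libraries and 14325 in none. With lists of equal length the counts were 97 (0.443%) and 72 (0.329%), with 20 genes in all 6. A peak that lies nearer to the start of another gene is not counted, and no test was made for a single gene, since 3 libraries against 3 cannot go below a p of 0.10. Of the 97 Oct4+ genes of the equal lists, 47 (48.5%) were also among the 539, and of the 72 Pdgfra+ genes 22 (30.6%) were among the 47.

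The counts rose or held when single libraries were left out, with all peaks and with equal lists. With fewer libraries to meet, the pattern cannot be met by fewer genes. The sizes of the rises were not tested. Without Oct4+ replicate 1, the shortest list of its group, 1286 genes met the Oct4+ pattern, and without Pdgfra+ replicate 3, the longest of its group, 993 did. With all peaks the Pdgfra+ count was 196 without Pdgfra+ replicate 2, 113 without Pdgfra+ replicate 1 and 72 without Oct4+ replicate 2. With equal lists the Oct4+ count was 188 without Oct4+ replicate 1, and the Pdgfra+ count 145 and 128 without Pdgfra+ replicates 2 and 1. Without chromosome 6 the counts were 480 and 42 with all peaks and 83 and 57 with equal lists.

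The genes behind the sort gave this picture. Pou5f1, which encodes OCT4, had peaks in all Oct4+ libraries, at the 92.1, 96.9 and 94.5 percentiles of total signal within their lists (the highest peak of a library being at the top percentile), 2.59, 2.77 and 7.46 kb upstream of its start. It was also listed in Pdgfra+ replicate 3, at the 93.4 percentile over the promoter, and in neither of the shorter Pdgfra+ lists. Percentiles are within lists of 1074 to 16057 peaks, so equal percentiles in different libraries stand for different ranks. Pdgfra, the receptor used in the sort, had no listed peak in the 3 Oct4+ libraries and was listed in Pdgfra+ replicate 1 (83.5 percentile, 7.64 kb upstream) and replicate 3 (87.7 percentile, 14.5 kb upstream). Of 8 markers of pluripotent cells, 4, 7 and 5 had a peak in the Oct4+ libraries and 1, 1 and 4 in the Pdgfra+ libraries. Of 10 markers of extra-embryonic endoderm, 3, 6 and 3 had a peak in Oct4+ and 3, 3 and 8 in Pdgfra+, which overlapped. With equal lists the endoderm markers numbered 1, 0 and 0 in Oct4+ and 2, 3 and 3 in Pdgfra+, without overlap, and the pluripotent markers 4, 3 and 4 against 1, 1 and 2. All genes stood at 2.05 to 2.33%. Gata6, Sox17, Sox7, Foxa2 and Dab2 of the endoderm markers and Sox2, Esrrb and Zfp42 of the pluripotent ones had no assigned peak in any equal-length list. The endoderm difference thus rests on the remaining markers, and the longer endoderm lists given below overlapped between the populations with equal lists. Dab2 was without a peak in all 6. Of 16 fibroblast genes, which the feeder cells would bring, 0 were listed in any Pdgfra+ library and 2, 1 and 1 in the Oct4+ libraries (Twist1, Pdgfrb and Meox1, named after their values were seen). Col1a1, Col1a2, Col3a1 and Thy1 had no listed peak in any of the 6.

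**Figure D2:**
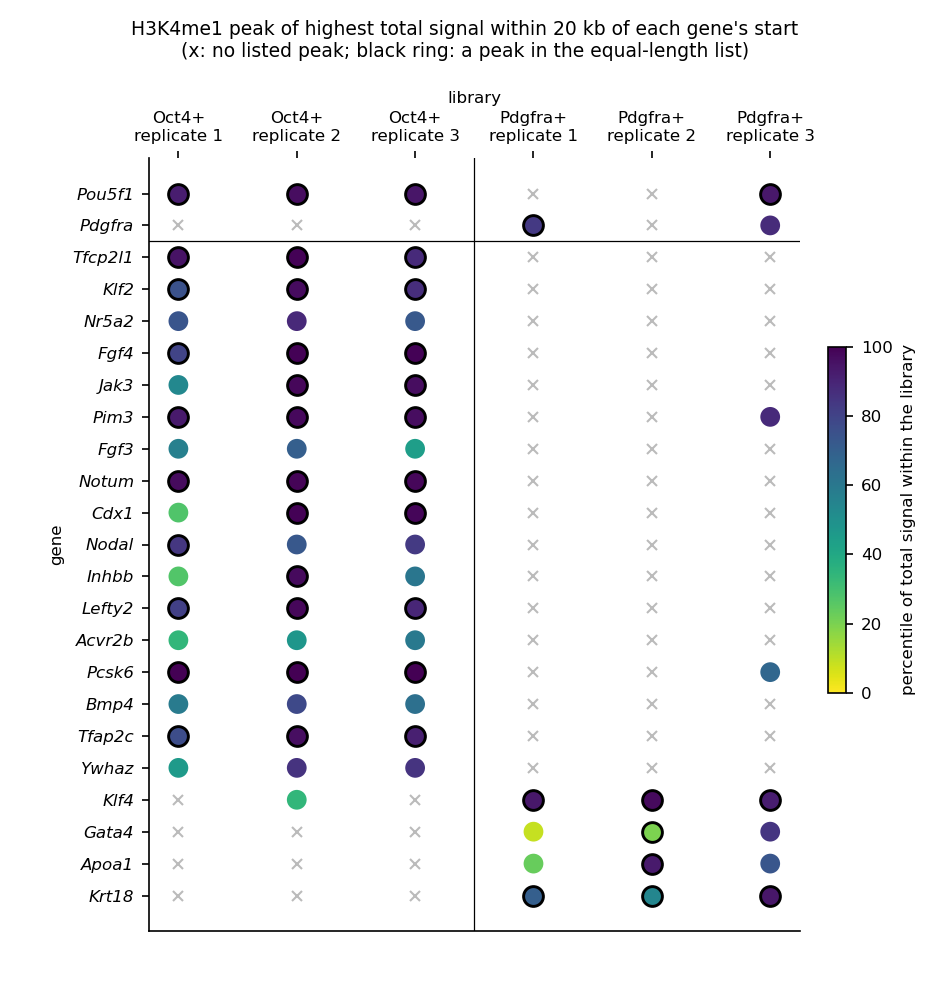
H3K4me1 peak of highest total signal assigned to the 2 sort genes and to the list genes found in a single population (rows) in each of the 6 libraries (columns), coloured by its percentile within the library, with a cross where no peak is listed and a black ring where a peak is in the equal-length list. Crosses fill the right-hand columns from Tfcp2l1 to Ywhaz except at Pim3 and Pcsk6 in Pdgfra+ replicate 3, and the left-hand columns of the Pdgfra+ genes except at Klf4 in Oct4+ replicate 2.

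Over 231 genes of 13 lists, 15 (6.49%) had the Oct4+ pattern and 3 (1.30%) the Pdgfra+ pattern with all peaks, beside 2.46 and 0.215% of all genes. With equal lists the numbers were 8 (3.46%) and 2 (0.866%), beside 0.443 and 0.329%. With all peaks, the share of all genes with a peak was 7.75, 25.8 and 13.1% in Oct4+ replicates 1 to 3 and 3.25, 2.05 and 18.3% in Pdgfra+ replicates 1 to 3, so counts of list members with all peaks are to be read against shares that themselves differ between libraries. The lists hold well-studied genes, and with equal lists 12.5% of 16 housekeeping genes had a peak in each of the 6 libraries, against 2.05 to 2.33% of all genes. Gapdh, on chromosome 6, and Actb were listed in all 6 libraries. Ywhaz, a 14-3-3 protein gene of the housekeeping list, had the Oct4+ pattern at the 45.8, 85.3 and 84.9 percentiles.

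Of 24 naive pluripotency genes, 10, 20 and 13 had a peak in the Oct4+ libraries and 2, 2 and 10 in the Pdgfra+ libraries. That is a mean of 59.7% of the list in Oct4+ and 19.4% in Pdgfra+, beside 15.6 and 7.86% of all genes. With equal lists the counts were 6, 6 and 8 against 2, 2 and 2, or 27.8 and 8.33% beside 2.22 and 2.14% of all genes. The list was not tested as a group. With all peaks, the median gene of the list had a peak in 1.5 more Oct4+ than Pdgfra+ libraries, where the median of all genes was 0. With equal lists the median was 0 for the list as for all genes, and 13 of the 24 genes had no peak.
Tfcp2l1, a naive transcription factor downstream of STAT3, was listed at the 95.1, 99.3 and 88.1 percentiles in Oct4+ replicates 1 to 3 and in no Pdgfra+ library. Its peaks lay 1.76 kb upstream over the promoter in replicate 1 and in introns 19.8 and 14.4 kb downstream of the start in replicates 2 and 3, so that the highest peak was not at the same place in each. Klf2, a Krüppel-like factor of the naive network, was listed at the 74.8, 97.3 and 87.1 percentiles, 13.3 to 15.7 kb downstream of its start. Fgf4, the ligand that epiblast cells send to the primitive endoderm, was listed at the 79.9, 99.4 and 99.4 percentiles, 8.92 to 10.4 kb from its start. Nr5a2, an orphan nuclear receptor, had lower peaks at the 73.6, 88.4 and 72.4 percentiles, at the same intronic site 6.14 to 6.59 kb from its start, and entered no equal-length list.

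Nanog, on chromosome 6, was listed in all Oct4+ libraries (79.1, 83.2 and 88.9 percentiles) and in Pdgfra+ replicate 3 at the 32.9 percentile. Sox2 was listed in Oct4+ replicates 2 and 3 (83.5 and 77.2 percentiles) and in Pdgfra+ replicate 3 (21.2 percentile). Esrrb, an orphan nuclear receptor of the same network, had no peak assigned to its start in any library. Peaks were assigned to a single start per gene within the distance limit, so H3K4me1 elsewhere in the Esrrb locus was not assessed. The paper places Esrrb among OCT4 targets near enhancers primed in DP cells, and relates such priming to activation in Oct4+ cells. Klf4 went the other way within the list. A peak 9.71, 9.72 and 9.87 kb upstream of Klf4 was listed in Pdgfra+ replicates 1 to 3 at the 93.4, 97.3 and 92.1 percentiles. In Oct4+ it was absent from all 3 lists, and replicate 2 alone had another peak, 6.79 kb downstream, at the 34.2 percentile. Of 15 formative pluripotency genes, 1, 13 and 8 had a peak in Oct4+ and 0, 0 and 3 in Pdgfra+, but with equal lists 1 remained in Oct4+ replicate 2 and none in the others. With all peaks the means were 48.9 and 6.67%, beside 15.6 and 7.86% of all genes. With equal lists they were 2.22 and 0%, beside 2.22 and 2.14%. Otx2 and Fgf5 were among those listed in Oct4+ replicates 2 and 3 alone, at or below the 42.3 percentile.

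Genes of FGF and ERK signalling, through which the epiblast and the endoderm are set apart, had a peak in 7, 19 and 15 of 24 in Oct4+ and in 1, 1 and 12 in Pdgfra+, a mean of 56.9 and 19.4% beside 15.6 and 7.86% of all genes. With equal lists these were 2, 4 and 2 against 1, 1 and 0. Beside Fgf4, the ligand gene Fgf3 had the Oct4+ pattern, at the 56.8, 70.2 and 44.2 percentiles and 15.4 to 15.9 kb upstream. The receptor gene Fgfr1 was listed in Oct4+ replicate 2 alone, at the 68.6 percentile.

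In the LIF and JAK-STAT list, 5, 10 and 7 of 20 genes had a peak in Oct4+ and 1, 1 and 7 in Pdgfra+, a mean of 36.7 and 15% beside 15.6 and 7.86% of all genes. Lists of equal length gave 1, 3 and 4 genes against 0, 1 and 2. Jak3, a cytokine receptor kinase, was listed over its promoter at the 53.5, 98.4 and 96.8 percentiles in Oct4+ and in no Pdgfra+ library. Pim3, a kinase induced by STAT3, was listed 3.87 to 5.17 kb from its start at the 93.1, 97.7 and 96.8 percentiles in Oct4+ and at the 88.2 percentile in Pdgfra+ replicate 3. Lif itself was listed in Oct4+ replicate 2 (51.6 percentile) and in all Pdgfra+ libraries (9.63, 48.3 and 99.5 percentiles). Il6st, the gp130 co-receptor, was listed in all Oct4+ libraries and in Pdgfra+ replicate 3, at the 33.0 to 60.0 percentiles.

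Of 25 Wnt genes, 8, 19 and 10 had a peak in Oct4+ and 0, 1 and 11 in Pdgfra+, a mean of 49.3 and 16% beside 15.6 and 7.86% of all genes, whereas with equal lists the numbers were 2, 2 and 2 against 0, 1 and 3. Notum, which encodes a secreted lipase that inactivates Wnt proteins, was among the highest peaks of every Oct4+ library (97.2, 98.8 and 98.4 percentiles, 2.28 to 4.72 kb upstream) and was listed in no Pdgfra+ library. Cdx1, a homeobox target of Wnt signalling, was listed at the 27.4, 99.3 and 98.5 percentiles in Oct4+ alone.

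Nodal and Activin signalling gave 4 of 20 genes (20%) with the Oct4+ pattern and 0 with the Pdgfra+ pattern with all peaks. All genes stood at 2.46 and 0.215%. With equal lists 2 (10%, Lefty2 and Pcsk6) and 0 had these patterns, beside 0.443 and 0.329% of all genes. Of the 20 members, 7, 14 and 13 had a peak in Oct4+ and 1, 2 and 8 in Pdgfra+ with all peaks. That is a mean of 56.7 and 18.3% beside 15.6 and 7.86% of all genes. With equal lists the counts were 4, 5 and 2 against 1, 2 and 2. The ligand Nodal was listed at the 84.3, 72.7 and 83.1 percentiles, 1.38 to 2.43 kb upstream. The Nodal antagonist Lefty2 was listed at the 81.2, 98.2 and 89.3 percentiles, 1.17 to 4.32 kb upstream. Inhbb, an Activin subunit, and the type II receptor Acvr2b were also listed in the 3 Oct4+ libraries alone, at the 27.3 to 97.4 and 34.2 to 59.7 percentiles. Pcsk6, the PACE4 convertase that cleaves the Nodal precursor, carried the highest peak of Oct4+ replicate 1 and stood at the 99.7 and 99.8 percentiles in replicates 2 and 3, with total signals of 34249, 89383 and 50521. In Pdgfra+ it was listed in replicate 3 alone, with a total signal of 13945 at the 66.9 percentile. Lefty1 was listed in all Oct4+ libraries and in Pdgfra+ replicate 3 (24.8 percentile).

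Of 18 BMP genes, 2, 10 and 5 had a peak in Oct4+ and 1, 0 and 3 in Pdgfra+, a mean of 31.5 and 7.41% beside 15.6 and 7.86% of all genes. Lists of equal length gave 1, 1 and 1 against 1, 0 and 1. Bmp4 had the Oct4+ pattern at the 58.8, 77.8 and 63.4 percentiles. Among 17 trophectoderm genes, 3, 9 and 5 had a peak in Oct4+ and 3, 1 and 10 in Pdgfra+, and with equal lists 2, 2 and 2 against 2, 1 and 2. With all peaks the means were 33.3 and 27.5%, beside 15.6 and 7.86% of all genes. With equal lists they were 11.8 and 9.80%, beside 2.22 and 2.14%. The 2 trophectoderm genes found in a single population went opposite ways. Tfap2c, which encodes the AP-2γ transcription factor, was listed in Oct4+ at the 76.7, 96.3 and 91.4 percentiles. Krt18, a keratin of simple epithelia, was listed 3.23 to 4.09 kb upstream in Pdgfra+ at the 70.2, 53.9 and 94.0 percentiles, with total signals of 6545, 5241 and 27110.

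Of 12 endoderm transcription factors, 1, 7 and 5 had a peak in Oct4+ and 2, 2 and 7 in Pdgfra+, and with equal lists 0, 0 and 0 against 0, 2 and 1. With all peaks the means were 36.1 and 30.6%, beside 15.6 and 7.86% of all genes. With equal lists they were 0 and 8.33%, beside 2.22 and 2.14%. Gata4, a zinc-finger factor of the endoderm, had the Pdgfra+ pattern, with a peak 12.1 to 12.4 kb upstream at one site in the 3 libraries. Its total signals of 4757, 4498 and 19526 put it at the 8.82, 19.9 and 84.5 percentiles, so that in replicate 1 it was near the bottom of the list. These lists hold 1723, 1074 and 10620 peaks, so the percentiles do not compare the rank of Gata4 between them. Gata6 was listed in Oct4+ replicates 2 and 3 (63.2 and 28.6 percentiles) and in Pdgfra+ replicate 3 (6.30 percentile), and Sox17 in Oct4+ replicates 2 and 3 alone (63.5 and 71.2 percentiles). Sox7 was listed in Oct4+ replicates 1 and 2 and in Pdgfra+ replicate 3, where it was highest (77.5 percentile).

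Basement membrane genes were listed often in both populations. Of 15, 7, 14 and 9 had a peak in Oct4+ and 6, 4 and 12 in Pdgfra+, and with equal lists 4, 4 and 4 against 3, 4 and 8. With all peaks the means were 66.7 and 48.9%, beside 15.6 and 7.86% of all genes. With equal lists they were 26.7 and 33.3%, beside 2.22 and 2.14%. None of the 15 genes had a peak in a single population in all its libraries. Col4a1 and Col4a2, the neighbouring collagen IV genes, were each listed in 2 of 3 libraries of both populations. Col4a1 stood at the 32.4 and 19.3 percentiles in Oct4+ replicates 1 and 2 and at the 46.3 and 90.1 percentiles in Pdgfra+ replicates 1 and 3. Col4a2 stood at the 73.4 and 22 percentiles in Oct4+ replicates 2 and 3 and at the 77.8 and 93.5 percentiles in Pdgfra+ replicates 2 and 3. Lama1, the laminin α1 chain, was listed in Pdgfra+ replicates 2 and 3 (88.6 and 97 percentiles) and in Oct4+ replicates 1 and 2 (89.7 and 73.0 percentiles). Among 15 genes of endoderm receptors and secreted proteins, 1, 4 and 2 had a peak in Oct4+ and 3, 2 and 8 in Pdgfra+, a mean of 15.6 and 28.9% beside 15.6 and 7.86% of all genes. At equal list length the counts were 0, 2 and 1 against 1, 2 and 1. Apoa1, an apolipoprotein, had the Pdgfra+ pattern 13.0 to 13.4 kb upstream, in an intron of another gene, at the 23.3, 93.3 and 73.4 percentiles. Lrp2 and Cubn, the megalin and cubilin receptors, were listed in Pdgfra+ alone, Lrp2 in replicates 2 and 3 and Cubn in replicate 3.

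**Figure D3:**
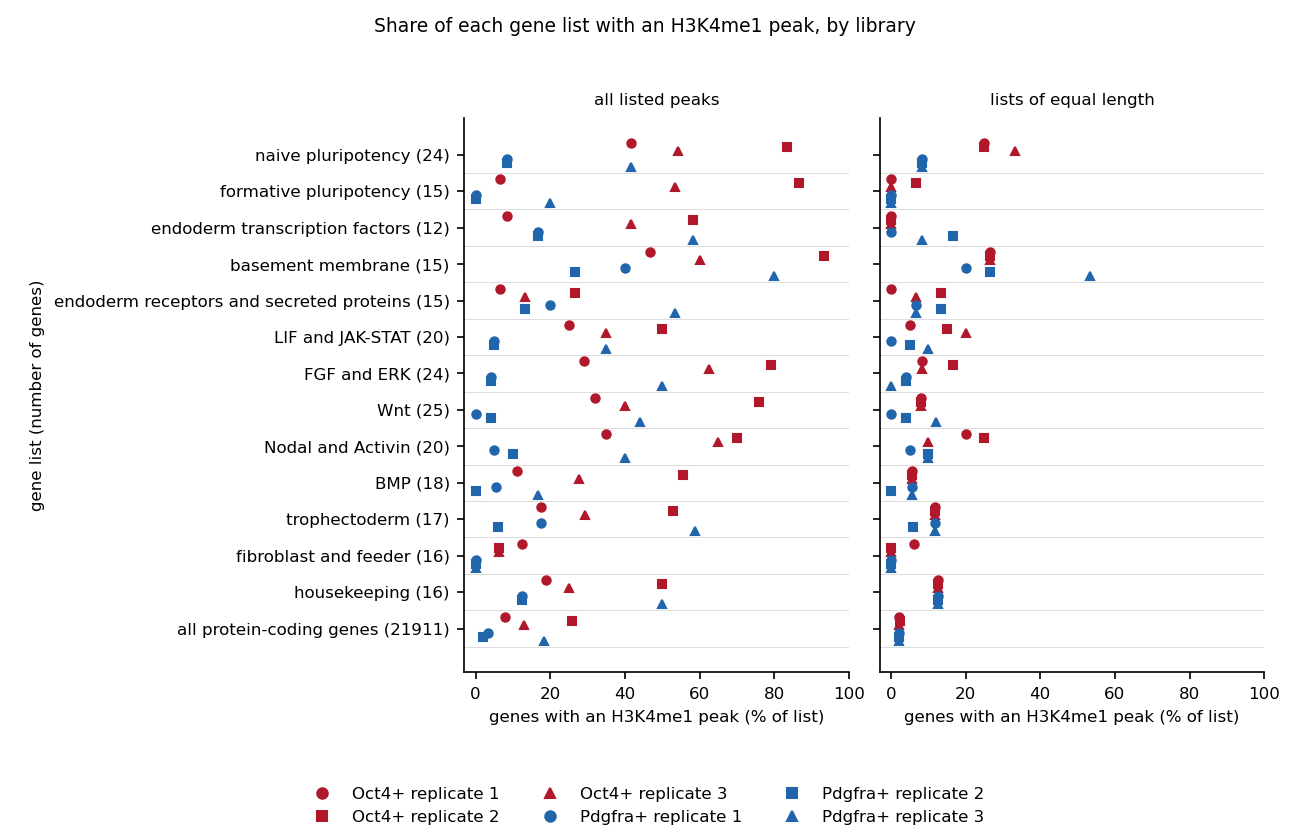
Share of the genes of each list with an H3K4me1 peak (x axis, per cent of the list) in each library, with all peaks on the left and with lists of equal length on the right, Oct4+ in red and Pdgfra+ in blue. With equal lengths the Oct4+ libraries lie at 25 to 33.3% of the naive pluripotency list against 8.33% in each Pdgfra+ library, and the housekeeping list lies at 12.5% in all 6.

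Outside the lists, 12 genes per population were taken by their mean percentile among genes called with both list lengths. In Oct4+ these included AC124108.1, Trh, Klf15, Slc52a3, Itpk1, Gpa33, Cd74, Inha, Tppp3, Zfhx2 and Itgb7, with peaks at the 92.2 to 99.8 percentiles of each Oct4+ list. Trh, on chromosome 6, encodes the precursor of thyrotropin-releasing hormone and was listed over its promoter at the 99.5, 99.5 and 97.5 percentiles. Klf15, also on chromosome 6, is a Krüppel-like factor and was listed at the 99, 98 and 98.2 percentiles. Slc52a3, a riboflavin transporter, was listed at the 98.7, 96.7 and 98.1 percentiles, and Inha, the inhibin α subunit, at the 99.4, 95.8 and 94.7 percentiles.

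In Pdgfra+ the genes were Agbl3, Aqp1, Gm6993, Nsd2, Gsn, C9, Pth1r, Stk38l, Ntn5, Mvb12b, Sdc3 and Pygb, with peaks at the 43.6 to 99.9 percentiles. These percentiles are within lists of other lengths than those of Oct4+. Aqp1, a water channel on chromosome 6, had 3, 4 and 6 peaks in Pdgfra+ replicates 1 to 3, the highest at the 99.9, 93.7 and 99.9 percentiles, and none in Oct4+. Pth1r, the receptor for parathyroid hormone and its related protein, the latter a signal that drives parietal endoderm formation, was listed at the 66.9, 87.3 and 99.7 percentiles. Gsn, the actin-severing protein gelsolin, was listed in an intron at the 98.5, 84.9 and 99.0 percentiles, and Sdc3, a cell-surface heparan sulphate proteoglycan, at the 97.4, 43.6 and 96.8 percentiles. Agbl3 and Stk38l also lie on chromosome 6, which makes 3 of the 12 in Pdgfra+ and 2 of the 12 in Oct4+.

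Merging the 6 lists into regions gave the same order of counts. Of 23621 regions, 1670 (7.07%) had a peak in the 3 Oct4+ libraries alone, 216 (0.914%) in the 3 Pdgfra+ libraries alone and 127 in all 6. With equal lists these were 223 (5.96%) and 167 (4.46%) of 3744. Of the 1670 Oct4+ regions, 10.1% overlapped a promoter (1 kb upstream to 100 bp downstream of a gene start), 45.8% lay in introns and 36.8% between genes, at a median of 24.0 kb from the nearest gene start. Of the 216 Pdgfra+ regions, 4.63% overlapped a promoter, 52.3% lay in introns and 39.4% between genes, at a median of 33.4 kb. The Oct4+ regions were 4158 bp wide at the median and the Pdgfra+ regions 3430.5 bp. Over whole lists the share of peaks over promoters was 9.38, 14.7 and 9.86% in Oct4+ and 5.92, 5.49 and 13.3% in Pdgfra+, which overlapped (exact permutation p = 0.40, adjusted p = 0.50). Without Oct4+ replicate 1 the Oct4+ count of regions was 4299, and the Pdgfra+ count was 524 and 803 without Pdgfra+ replicates 1 and 2. With equal lists the Oct4+ count was 434 without Oct4+ replicate 1, and the Pdgfra+ count 305, 330 and 268 without Pdgfra+ replicates 1, 2 and 3.

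At the 127 regions listed in all 6 libraries, the summed signal of the peaks in a region was compared by limma on the log2 scale, each library centred on its median over these regions. Signal was higher in Oct4+ at 5 regions (3.94%) and higher in Pdgfra+ at 9 (7.09%) at an adjusted p of 0.05, and 34 had an unadjusted p below 0.05. Peaks of one region may cover different stretches of it in different libraries, so a higher sum can mean a longer or a taller peak. Without Oct4+ replicate 3 the counts were 2 and 0, without Oct4+ replicate 2 they were 2 and 4, and without Pdgfra+ replicate 1 they were 3 and 5. The Pdgfra+ count was also 5 without Pdgfra+ replicate 2 and without Pdgfra+ replicate 3.

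The region that differed most was chr9:114513247-114559526, 46280 bp over Trim71 and C130032M10Rik. TRIM71 is a let-7 target and RNA-binding ubiquitin ligase of pluripotent cells. The region stood 3.07, 3.19 and 2.88 log2 units above the library median in Oct4+ and 0.37, 0.42 and 1.44 units above it in Pdgfra+. It was thus above the median region in every library, and the groups did not overlap. The difference was 2.30 log2 units (SE 0.35, limma adjusted p = 1.62e-06), and the call was kept on leaving out each of the 6 libraries in turn. It held the highest total signal of all in Oct4+ replicate 2, at 361479.

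Of the other regions higher in Oct4+, chr4:129218351-129241910, over Yars and C77080, differed by 1.60 log2 units (SE 0.34, limma adjusted p = 0.000702) and kept its call in 6 of 6 fits without a library. The Cd9 region on chromosome 6 (chr6:125465230-125493767), over the gene of a tetraspanin of embryonic stem cells and other cells, differed by 1.34 log2 units (SE 0.39, limma adjusted p = 0.0153). Its values were 1.21, 2.13 and 1.82 in Oct4+ and -0.38, -0.32 and 1.83 in Pdgfra+, so that Pdgfra+ replicate 3 lay among the Oct4+ libraries. Regions in Pard3, a polarity gene, and over Foxj1, a regulator of motile cilia, differed by 1.19 (SE 0.35, limma adjusted p = 0.0153) and 0.99 log2 units (SE 0.34, limma adjusted p = 0.0462). The Cd9, Pard3 and Foxj1 calls were each kept in 2 of 6 fits without a library.

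Of the regions higher in Pdgfra+, chr6:82039041-82054223, over the promoter of Eva1a, a regulator of autophagy, differed most. Its values were -0.24, -0.62 and -1.54 in Oct4+ and 0.73, 0.54 and 1.42 in Pdgfra+, without overlap, a difference of -1.70 log2 units (SE 0.36, limma adjusted p = 0.000702, kept in 5 of 6 fits without a library). Regions in Adora1, an adenosine receptor gene (nearest start Mybph), in Pak6, a p21-activated kinase gene, in Tspan9, a tetraspanin gene, and in Igf2bp3, an RNA-binding protein gene, differed by -1.30, -1.27, -1.25 and -1.23 log2 units. Their SE lay between 0.34 and 0.36 and their limma adjusted p between 0.0142 and 0.0144, and they were kept in 2, 3, 4 and 3 of 6 fits without a library. Chromosome 6 held 22 of the 127 regions, 1 of the 5 higher in Oct4+ and 4 of the 9 higher in Pdgfra+ (Eva1a, Tspan9, Igf2bp3 and Rab11fip5).

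**Figure D4:**
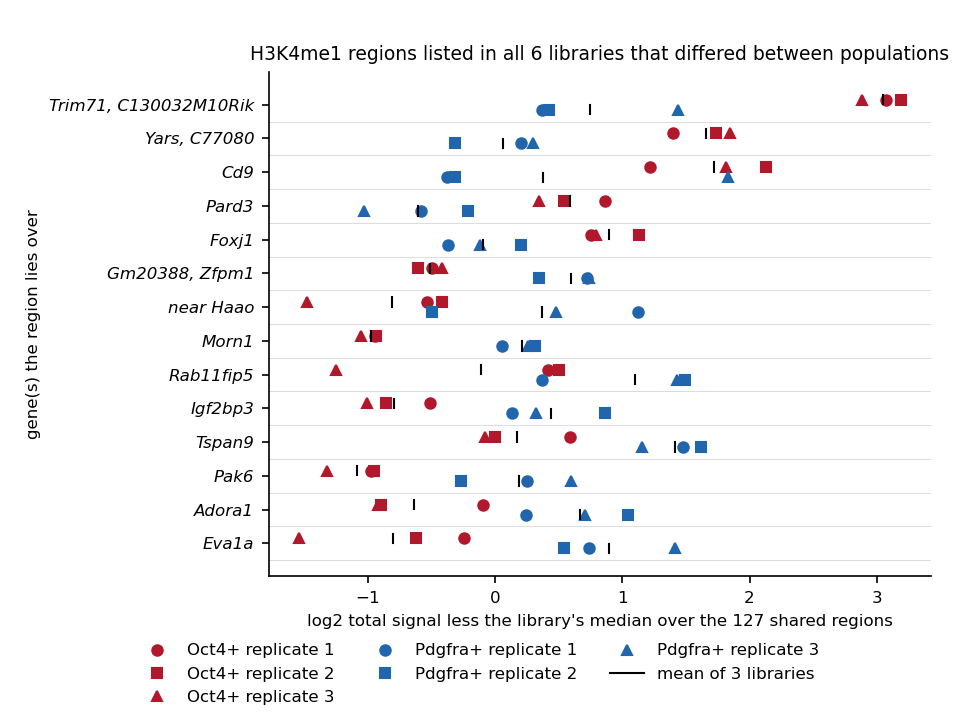
Summed H3K4me1 signal (x axis, log2 units relative to the library median over the 127 regions listed in all 6 libraries) at the 14 regions past an adjusted p of 0.05, Oct4+ in red, Pdgfra+ in blue, with black ticks at the mean of 3 libraries. The populations are furthest apart at the Trim71 region, where Oct4+ libraries lie between 2.88 and 3.19 and Pdgfra+ libraries between 0.37 and 1.44.

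Genes sorted by H3K4me1 were then read in the other marks, which did not enter the choice of genes and come from other libraries of the same populations. A peak of another mark was counted by its nearest gene start within 20 kb and need not overlap the H3K4me1 peak. H3K27ac, the mark of active enhancers and promoters, was listed at 82.4, 94.1 and 43.8% of the 539 Oct4+ genes in Oct4+ libraries and at 13.9, 18.9 and 15.8% of them in Pdgfra+ libraries. All genes stood at 46.7, 61.6 and 19.5% in Oct4+ and at 15.2, 22.1 and 16.9% in Pdgfra+. The excess over all genes was thus 30.8 ± 5.87 points in Oct4+ and -1.83 ± 1.15 points in Pdgfra+ (SD, n = 3, exact permutation p = 0.10, adjusted p = 0.10 over 6 comparisons). The 47 Pdgfra+ genes went the other way, with an excess of 43.0 ± 2.07 points in Pdgfra+ and 2.81 ± 18.3 points in Oct4+ (exact permutation p = 0.10, adjusted p = 0.10). In Oct4+ the 3 libraries were spread, with excesses of -4.14, 23.5 and -11.0 points, the middle one in replicate 2, whose list of 65131 peaks is the longest. With H3K27ac lists of equal length, the 47 genes were listed at 4.26, 8.51 and 2.13% in Oct4+ and at 59.6, 55.3 and 57.4% in Pdgfra+. The 539 genes were then listed at 34.5, 29.9 and 30.2% in Oct4+ and at 13.9, 13.0 and 15.4% in Pdgfra+. All genes stood at 11.2, 11.7 and 12.4% in Oct4+ and at 15.2, 15.5 and 16.7% in Pdgfra+ at this length.

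H3K27me3, the Polycomb mark, stood in the opposite order. It was listed at 7.42, 14.5 and 22.6% of the 539 Oct4+ genes in Oct4+ libraries and at 11.5, 22.4 and 38.8% of them in Pdgfra+ libraries, where all genes stood at 5.93 to 16.9% and at 3.79 to 15.7%. The excess was 3.88 ± 2.16 points in Oct4+ and 15.2 ± 7.71 points in Pdgfra+ (exact permutation p = 0.10, adjusted p = 0.10). At the 47 Pdgfra+ genes it was 8.90 ± 7.44 points in Oct4+ and -3.37 ± 0.447 points in Pdgfra+, with 4, 8 and 16 genes listed against 0, 2 and 6 (exact permutation p = 0.10, adjusted p = 0.10). With H3K27me3 lists of equal length the 539 genes were listed at 7.30% ± 1.06 in Oct4+ and 14% ± 2.17 in Pdgfra+. All genes then stood at 4.28, 4.29 and 4.28% in Oct4+ and at 3.79, 3.75 and 3.84% in Pdgfra+. At the 1670 Oct4+ regions, H3K27me3 overlapped 1.62, 2.99 and 7.49% in Oct4+ libraries, below the 2.31, 4.24 and 8.52% of all regions. In Pdgfra+ libraries it overlapped 2.69, 6.35 and 17.4% of them, above the 1.32, 3.24 and 9.10% of all regions. The 216 Pdgfra+ regions stood at 0.926, 2.78 and 9.72% in Oct4+ and at 0, 0 and 1.85% in Pdgfra+.

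H3K9me3, a mark of heterochromatin, differed little at the 539 Oct4+ genes, with an excess of 2.43 ± 1.37 points in Oct4+ and 0.937 ± 0.539 points in Pdgfra+ (exact permutation p = 0.10, adjusted p = 0.10), a difference that changed sign with lists of equal length. At the 47 Pdgfra+ genes it was listed at 4, 4 and 2 genes in Oct4+ and at 13, 3 and 9 in Pdgfra+, an excess of -9.77 ± 2.64 and 5.93 ± 4.17 points (exact permutation p = 0.10, adjusted p = 0.10).

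Single genes of the lists showed the marks side by side. Tfcp2l1, Fgf4, Notum, Nodal, Lefty2 and Acvr2b had an H3K27ac peak in 3 of 3 Oct4+ libraries and 0 of 3 Pdgfra+ libraries, and Pcsk6 did as well. The H3K27ac lists held 38619, 65131 and 8574 peaks in Oct4+ and 4792, 7128 and 4861 in Pdgfra+. Longer lists favour this pattern at any gene. Its share over all genes was not computed, and the tallies per gene were not repeated with equal lists. Notum had an H3K27me3 peak in 0 of 3 Oct4+ and 3 of 3 Pdgfra+ libraries, and Fgf4, Klf2, Nr5a2, Inhbb and Bmp4 in 0 of 3 and 2 of 3. Pim3 and Ywhaz had H3K27ac in all 6 libraries. Fgf3, Jak3 and Cdx1 had H3K27ac in only 1 of 3 Oct4+ and 0 of 3 Pdgfra+ libraries. Fgf3 also had H3K27me3 in 3 of 3 Oct4+ and 2 of 3 Pdgfra+ libraries. H3K9me3 was listed at Pcsk6 and Pim3 in 3 of 3 libraries of both populations. At Acvr2b it was listed in 3 of 3 Oct4+ and 1 of 3 Pdgfra+ libraries. Tfap2c had H3K27me3 in both populations, in 2 and 3 libraries. Gata4 had H3K27ac in 1 of 3 Oct4+ and 3 of 3 Pdgfra+ libraries and H3K27me3 in 2 of 3 Oct4+ and 0 of 3 Pdgfra+ libraries. Pdgfra had H3K27ac in 0 of 3 Oct4+ and 3 of 3 Pdgfra+ libraries and H3K27me3 in 2 of 3 and 0 of 3. Klf4, whose upstream H3K4me1 peak was listed in Pdgfra+, had H3K27ac in all 6 libraries, whereas Apoa1 had it in 1 Oct4+ library and in no Pdgfra+ library.

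**Figure D5:**
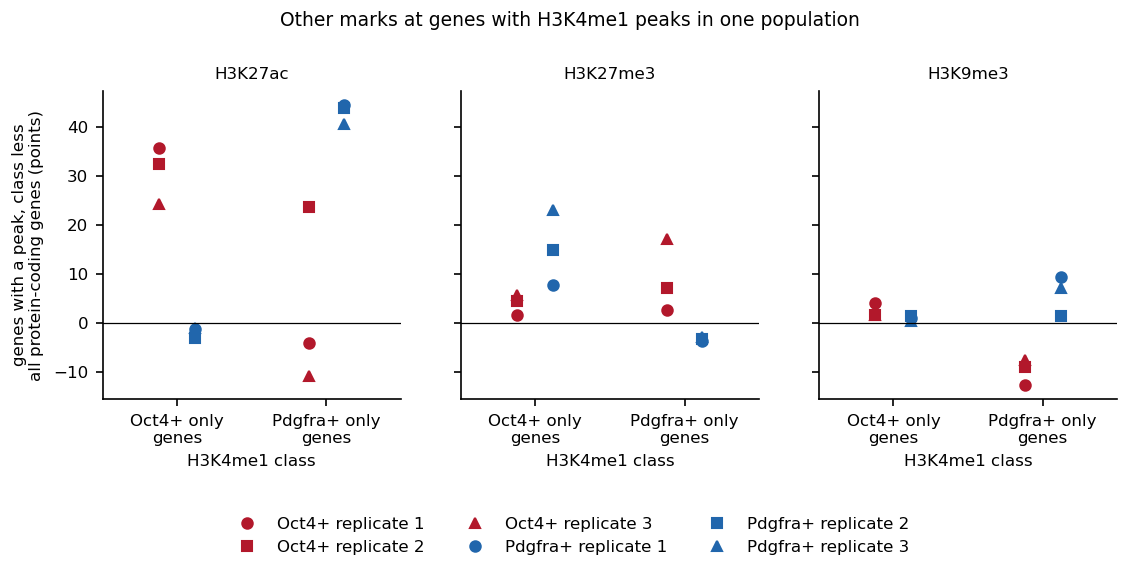
Share of genes with a peak of H3K27ac, H3K27me3 or H3K9me3 among the 539 genes with the Oct4+ pattern and the 47 with the Pdgfra+ pattern of H3K4me1, less the share of all protein-coding genes in the same library (y axis, percentage points), a symbol per library. H3K27ac lies 24.3 to 35.7 points above all genes at the Oct4+ genes in Oct4+ libraries and 40.6 to 44.4 points above at the Pdgfra+ genes in Pdgfra+ libraries, and H3K27me3 lies 7.71 to 23.1 points above at the Oct4+ genes in Pdgfra+ libraries.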

How the data were processed

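The authors sorted nEnd cultures, made and amplified CUT&Tag libraries, sequenced them paired-end, computed BEDtools coverage and called peaks of each library against IgG with SEACR in stringent mode. For every peak the deposited lists hold the summed and the maximum signal (fragment coverage) and where the maximum lies. The submitters' processing notes also name bcl2fastq 2.19.1, Bowtie2, SAMtools 1.12, bedtools 2.26.0, deepTools and build mm10. Not given in the sources used here is whether the signal was scaled to depth or to IgG. From the series, the 6 H3K4me1 lists of Oct4+ and Pdgfra+ were used, beside those of the other marks, and DP and IgG samples were not used here.

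Peaks were assigned by midpoint to the nearest start of 21911 protein-coding genes (GENCODE vM21, GRCm38) within 20 kb. The gene named for a region is the nearest start or the gene overlapped. Intervals that overlapped were merged into regions. Total signal at regions listed in all 6 libraries was compared with limma 3.58.1 (R 4.3.3, trend, Benjamini-Hochberg), tested on simulated data with the spread of these 127 regions, where 48.3, 96.0 and 99.3% of regions changed by 1, 2 and 3 log2 units were recovered. Shares per library were compared by two-sided exact permutation over 20 splits (Python 3.11.15, NumPy 2.4.6, pandas 2.3.3, Matplotlib 3.10.9). The study calls its replicates biological. Whether they were separate cultures is not stated in the labels, so p-values measure the spread between these samples.

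Genes were named as follows: the sort genes, every list gene with a peak in 3 of 3 libraries of a population and 0 of 3 of the other, up to 3 other members per list in list order, the 12 genes per population outside the lists of highest mean percentile, and the 5 shared regions per direction of largest difference. A gene that this rule takes in Oct4+ is not reported here. The lists covered naive and formative pluripotency, endoderm transcription factors, basement membrane, endoderm receptors and secreted proteins, LIF, FGF, Wnt, Nodal and BMP signalling, trophectoderm, fibroblasts and housekeeping. The populations, lists, motifs and tests were chosen with earlier results of these data known. Sequence was read from the RefSeq copy of GRCm38. Alternatives were other distance limits, list lengths, signal measures, merging gaps and windows, and leaving out each library.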

Additional observations from a re-analysis of the deposited data

How the results depend on the processing

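With no limit of distance, within 5 kb and with at least 2 of 3 libraries asked for, 825, 231 and 1504 genes had the Oct4+ pattern and 75, 15 and 264 the Pdgfra+ pattern with all peaks, and 170, 23 and 260 against 159, 16 and 236 with equal lists. On the 0.5 of each list with the highest signal the counts were 306 and 27, and with all transcript starts the Pdgfra+ count of the equal lists was 109. Regions in at least 2 of 3 libraries and 0 of 3 of the other population numbered 5064 and 1114 with all peaks and 612 and 569 with equal lists.
Leaving out a library in turn gave 539 to 1286 Oct4+ and 48 to 196 Pdgfra+ genes with all peaks and 100 to 188 and 74 to 145 with equal lists, 1672 to 4299 and 216 to 803 regions with all peaks and 227 to 434 and 173 to 330 with equal lists, and 2 to 7 and 0 to 13 shared regions. Fewer libraries to meet a pattern let more genes meet it by construction. The H3K9me3 difference at Oct4+ genes turned to -0.0664 points with equal lists of H3K9me3 and to -2.66 at genes called with equal lists. The STAT difference turned to -0.130 points with all peaks and to -0.0024 with promoter peaks left out. The other marks and motifs kept their direction in every alternative run. Deviations of samples with equal replicate numbers correlated at 0.298, -0.165 and -0.134, and replicate 1 alone correlated best with its own number. These values cannot settle whether equal numbers pair the samples, and the labels do not say. A fit with the replicate block called 4 and 9 shared regions. The unknown depth limits every statement on an absent peak.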
